A study of Arabidopsis thaliana with 12 samples.

Results

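Expansins and expansin-like proteins form a plant family with 4 classes: alpha-expansins (EXPA), beta-expansins (EXPB), expansin-like A (EXLA) and expansin-like B (EXLB). On these arrays 18 genes of the family have a probe set that names no other gene, among 13513 such probe sets in all. The RefSeq table holds 34 symbols of the family, 24 of them alpha-expansins, so many alpha-expansins could not be followed here. Of the 18, 10 had a signal of 16 or more on at least 2 of the 12 arrays and are described here: EXPA4, EXPA8, EXPA9, EXPA15 and EXPA20, EXPB1, EXPB2 and EXPB5, EXLA1, and EXLB1. They are 5 of the 10 alpha-expansins with a probe set of their own, 3 of 4 beta-expansins, 1 of 3 EXLA genes and the 1 EXLB gene. The signal is the brightness of a probe set on a linear scale, and the minimum of 16 used the signals on all arrays whatever their treatment.

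The RNA was total RNA from Arabidopsis thaliana seeds of the Landsberg erecta (Ler) background, all from 1 stock. No genotype beyond that background was found in the labels. Seeds were kept in water or in 5 µM gibberellin for 3, 6 or 9 h, which makes 6 groups of 2 arrays lettered A and B. The labels state neither the form of gibberellin nor how the seeds were handled before treatment. They also do not say if arrays A and B hold RNA of separate seed batches, so the p-values measure only the spread between these arrays.

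Expansins loosen the plant cell wall without cutting its polymers and so let a cell under turgor expand. Alpha-expansins are the class best known for this in growing tissues of plants other than grasses, beta-expansins include the group of grass pollen allergens, and the expansin-like classes share the domains of expansins but have no established wall-loosening activity. Gibberellin is the hormone that promotes germination, in which the embryo expands and the surrounding endosperm weakens until the root tip emerges.

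Array-wide facts that touch the results are few. Of 22746 probe sets, 15779 (69.4%) passed the signal minimum and were tested, and arrays A and B of the same group correlated at 0.913 to 0.935 in log2 signal. The highest signal on an array was 3308 to 3787 on 4 arrays (the A arrays at 3 and 6 h in both treatments) and 6511 to 9143 on the other 8. Of 19 marker loci for seed storage, endosperm, seed coat and green tissue, 1 had a probe set of its own, the seed coat flavonoid gene BAN, at 1.15 to 11.8 on the 12 arrays. The other loci, among them the alpha-expansin EXPA2 in the endosperm list, were not analysed here, so the seed label was not checked against them.

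Of the 5 alpha-expansins described here, 4 rose in gibberellin in at least 1 comparison with water and EXPA20 in none. No beta-expansin or expansin-like gene described here passed the test in any comparison of gibberellin with water. Except for EXPB1, the signals of these genes lay around or below 16. The standard error (SE) of their log2 change at 1 time was 0.944 to 1.26, so large changes could go uncalled. EXPA8 rose at all 3 times, EXPA9 and EXPA15 rose at 6 and 9 h, and these 3 and EXPA4 rose on average over the times. At 3 h 1 of the 10 members rose and 0 fell, against 0.184% of all tested probe sets called higher and 0.0444% called lower. At 6 h 3 rose and 0 fell, against 0.913% called higher and 0.564% called lower. At 9 h 3 rose and 0 fell, against 3.78% called higher and 3.68% called lower. Averaged over the 3 times, 4 rose and 0 fell, against 5.98% called higher and 5.64% called lower. A call is an adjusted p under 0.05 in limma, with Benjamini-Hochberg adjustment over all 15779 probe sets. The fit behind these counts ignored the array letter. With the letter as a block, EXPA9 and EXPA15 also passed at 3 h (limma adjusted p = 0.00841 and 0.0356). EXPA4 then also passed at 9 h (adjusted p = 0.00341). In that fit 0.551% of all tested probe sets were called higher at 3 h and 7.92% at 9 h. Because whole seeds were measured, a change in the number of cells that hold an RNA and a change in RNA per cell cannot be told apart.

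EXPA8 (AT2G40610) had the largest average change of the 10 members. In water its signals on arrays A and B were 78.1 and 72.2 at 3 h, 97.7 and 51.2 at 6 h, and 53.9 and 48.3 at 9 h. In gibberellin they were 894 and 707 at 3 h, 1091 and 1149 at 6 h, and 644 and 796 at 9 h. The lowest gibberellin array lay far above the highest water array, so the treatments did not overlap at any time. EXPA8 rose 10.6-fold at 3 h (log2 change 3.40 ± 0.268 SE, limma adjusted p = 0.000306), 15.8-fold at 6 h (3.98, adjusted p = 1.83e-05) and 14.0-fold at 9 h (3.81, adjusted p = 1.8e-05). The change averaged over the times was 3.73 ± 0.155 (adjusted p = 8.14e-08). Its change at 3 h ranked 6th from the highest of the 15779 probe sets, at 6 h 19th and at 9 h 48th. Its call held at each time in every one of the 25 other settings. Within the gibberellin groups its signal at 9 h against 6 h gave -0.65 ± 0.268, which did not pass the test (adjusted p = 0.848).

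**Figure D1:**
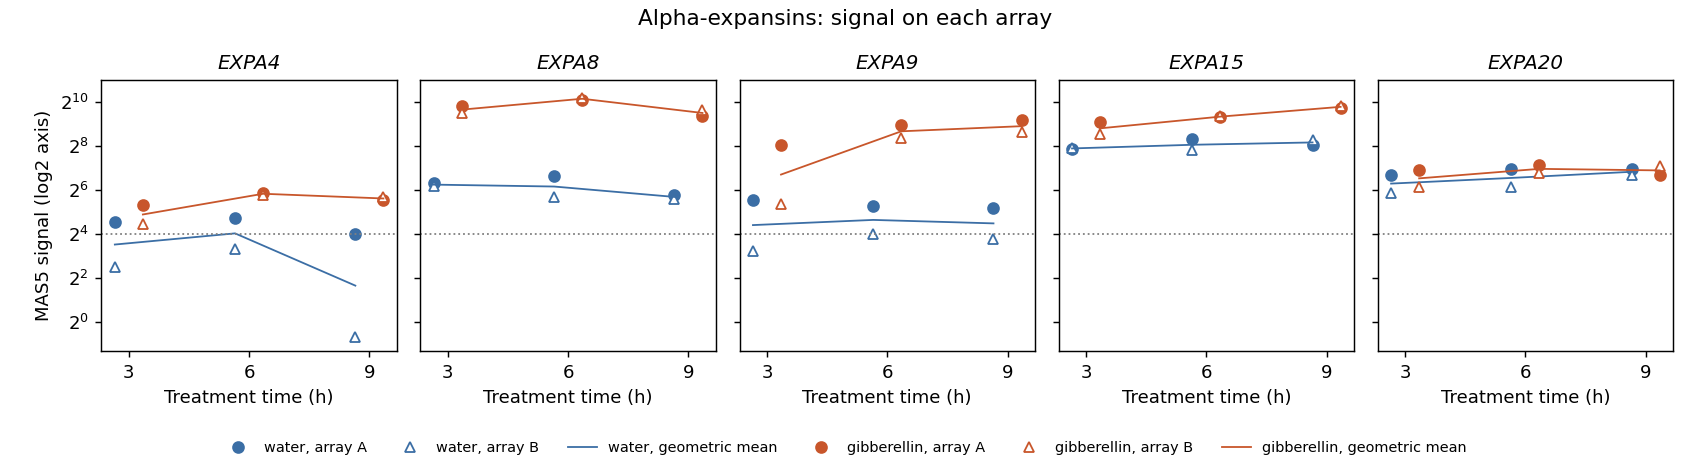
Signal of the 5 alpha-expansins on each array (log2 axis, one panel per gene) against treatment time in h, water in blue and 5 µM gibberellin in orange, circles for array A, triangles for array B, lines through the geometric means of 2 arrays and a dotted line at the signal minimum of 16. All 6 gibberellin arrays lie above all 6 water arrays for EXPA8 (lowest 644 against highest 97.7) and EXPA15 (366 against 315), and the treatments overlap at each time for EXPA20.

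EXPA15 (AT2G03090), a further alpha-expansin, had water signals of 231 and 238 at 3 h, 315 and 220 at 6 h, and 263 and 306 at 9 h. Its gibberellin signals were 532 and 366 at 3 h, 632 and 644 at 6 h, and 846 and 891 at 9 h. Again all 6 gibberellin arrays were above all 6 water arrays, although the gap at 3 h was small. EXPA15 rose 2.42-fold at 6 h (log2 change 1.28 ± 0.22, limma adjusted p = 0.0156) and 3.07-fold at 9 h (1.62, adjusted p = 0.00169), with an average of 1.27 ± 0.127 (adjusted p = 0.000106). At 3 h the change of 0.91 ± 0.22 did not pass (adjusted p = 0.28), and with the array letter as a block it did (adjusted p = 0.0356). The call at 6 h was lost on the arrays with a high ceiling alone (1.55, adjusted p = 0.0754), without the intensity trend (adjusted p = 0.0825), and without the water B array (adjusted p = 0.18) or either gibberellin array of that time (adjusted p = 0.099 and 0.096).

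Complete separation of the 6 gibberellin arrays above the 6 water arrays was thus seen for 2 of the 10 members, EXPA8 and EXPA15, and for 3.19% of all tested probe sets. The other 2 alpha-expansins that rose had 1 or more water arrays above a gibberellin array. Separation at a single time, 2 arrays against 2, is given below for single genes as a description. Its share over all probe sets was not counted.

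EXPA9 (AT5G02260) had the largest median difference between the lettered arrays. In water its signals on A and B were 46.9 and 9.42 at 3 h, 38.4 and 15.9 at 6 h, and 36.5 and 13.5 at 9 h. In gibberellin they were 257 and 41.3 at 3 h, 494 and 327 at 6 h, and 575 and 388 at 9 h. Array A was the higher in all 6 groups, by a log2 difference of 0.565 to 2.64 (median 1.35), and the treatments overlapped at 3 h and not at 6 or 9 h. EXPA9 rose by a log2 change of 4.02 ± 0.871 at 6 h (limma adjusted p = 0.0459), 4.41 at 9 h (adjusted p = 0.0119) and 3.58 ± 0.503 on average (adjusted p = 0.001). At 3 h the change of 2.29 did not pass (adjusted p = 0.81), and it was 0.974 without the gibberellin A array of 3 h and 3.61 without the B array.

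Between arrays of the same letter, EXPA9 at 3 h was 5.48-fold higher in gibberellin on A and 4.39-fold higher on B. At 6 h these folds were 12.9 and 20.6, and at 9 h 15.8 and 28.8. Gibberellin was above water within each letter at each time. With the letter as a block the SE fell from 0.871 to 0.397, and EXPA9 passed at 3 h (limma adjusted p = 0.00841). In that fit it also passed at 6 h (adjusted p = 1.22e-05) and 9 h (adjusted p = 2.01e-06). The other fits in this paragraph have no block. Of 12 fits with single arrays removed, 4 gave a call at 6 h. It was lost there without the intensity trend (adjusted p = 0.168), with a robust variance prior (adjusted p = 0.146) and among single-gene probe sets alone (adjusted p = 0.0508). The call at 9 h was lost without the intensity trend (adjusted p = 0.0553), without the water B array (adjusted p = 0.119) and without the gibberellin A array of that time (adjusted p = 0.0791).

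**Figure D2:**
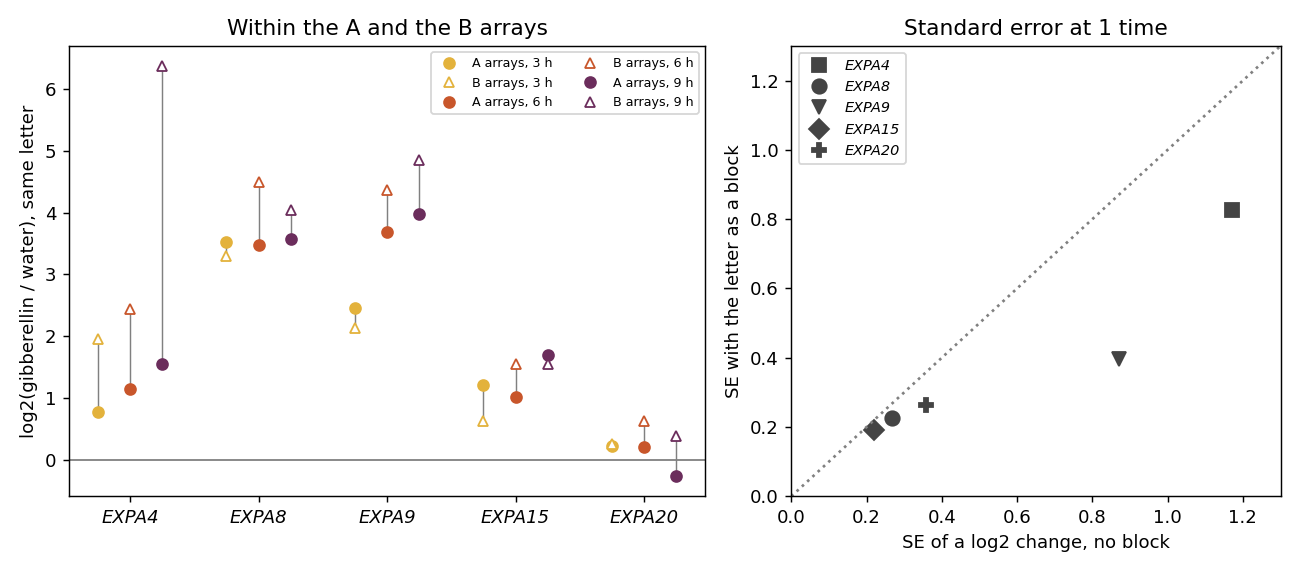
Left, log2 ratio of gibberellin to water between arrays of the same letter for the 5 alpha-expansins, with circles for A, triangles for B and colours for 3, 6 and 9 h. Right, SE of a log2 change at 1 time without a block (horizontal) and with the letter as a block (vertical), with a dotted line where they are equal. For EXPA9 at 3 h the ratios are 2.46 on A and 2.13 on B, and its SE is 0.871 without and 0.397 with the block.

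EXPA4 (AT2G39700) was close to the signal minimum in water. There its signals on A and B were 23.1 and 5.64 at 3 h, 26.1 and 10.05 at 6 h, and 15.8 and 0.622 at 9 h. In gibberellin they were 39.5 and 21.8 at 3 h, 58.0 and 54.7 at 6 h, and 45.9 and 51.4 at 9 h. Each gibberellin array exceeded the water array of its time and letter, with overlap between the treatments at 3 h only. Averaged over the times EXPA4 rose by a log2 change of 2.37 ± 0.678 (limma adjusted p = 0.043). No single time passed: the changes were 1.36 ± 1.17 at 3 h (adjusted p = 1), 1.80 at 6 h (adjusted p = 0.634) and 3.96 at 9 h (adjusted p = 0.0653).

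The EXPA4 values moved with the scale and with single arrays. On the log2(signal + 16) scale the change at 9 h was 1.49 (limma adjusted p = 0.029) and the average 1.09 (adjusted p = 0.00565). With the letter as a block the average kept its call (limma adjusted p = 0.00188), and the 9 h change passed (adjusted p = 0.00341). When single arrays were removed it was called in 1 of 12 fits, at 6.29 without the water A array of 9 h (adjusted p = 0.00518), and it was 1.62 without the water B array of 9 h (adjusted p = 0.398). At 6 h EXPA4 passed with the letter as a block on the log2(signal + 16) scale (1.13, adjusted p = 0.0146) and with the block alone did not (adjusted p = 0.267). With single arrays removed its change ranged from 0.348 to 2.38 at 3 h, from 1.11 to 2.49 at 6 h, and from 1.60 to 3.15 on average. The average call was kept in 3 of 12 fits with single arrays removed. It was lost without the intensity trend (adjusted p = 0.105), with a robust variance prior (adjusted p = 0.0768) and on the arrays with a high ceiling alone (2.78, adjusted p = 0.154).

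EXPA20 (AT4G38210) was the 1 alpha-expansin of the 5 that did not pass in any comparison of gibberellin with water. Its water signals on A and B were 103 and 58.3 at 3 h, 122 and 70.6 at 6 h, and 123 and 103 at 9 h. Its gibberellin signals were 120 and 69.7 at 3 h, 141 and 108 at 6 h, and 103 and 135 at 9 h. The treatments overlapped at every time. The log2 changes were 0.24, 0.41 and 0.06 at 3, 6 and 9 h, and the average was 0.24 ± 0.207 (limma adjusted p = 0.539). At 3 and 9 h the sign turned when single arrays were left out.

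Gibberellin was above water in all 6 pairs of the same time and letter for EXPA4, EXPA8, EXPA9 and EXPA15, which 10.6% of all tested probe sets also showed. EXPA20 was above in 5 of the 6 pairs.

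Among the beta-expansins, EXPB1 (AT2G20750) had water signals of 21.9 and 13.5 at 3 h, 19.3 and 23.3 at 6 h, and 20.9 and 16.9 at 9 h. In gibberellin they were 15.0 and 18.9 at 3 h, 24.6 and 27.1 at 6 h, and 34.8 and 41.5 at 9 h. The gibberellin arrays were above the water arrays at 6 and 9 h and overlapped them at 3 h. The log2 change at 9 h was 1.02 ± 0.393, which did not pass the test (limma adjusted p = 0.15, and 0.12 with the letter as a block). The average was 0.42 ± 0.227 (adjusted p = 0.278).

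EXPB2 (AT1G65680) had the most negative average of the 10 members. Its water signals were 13.2 and 13.9 at 3 h, 23.2 and 13.4 at 6 h, and 12.6 and 13.6 at 9 h. Its gibberellin signals were 6.17 and 0.763 at 3 h, 13.8 and 6.59 at 6 h, and 1.36 and 18.3 at 9 h. They were below the water arrays at 3 h and overlapped them later, and 2 of the 12 arrays reached 16. The change at 3 h was -2.64 ± 1.26 (limma adjusted p = 0.957), with -4.15 when the gibberellin A array was removed and -1.14 when the B array was, and the average -1.64 ± 0.728 (adjusted p = 0.184), with 0 calls. On the log2(signal + 16) scale these values were -0.617 and -0.419. In the RefSeq table EXPB2 is the neighbour of EXPB6.

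The 3 remaining members also stayed around the signal minimum. EXPB5 (AT3G60570) ranged from 3.39 to 24.5 in water and from 5.89 to 21.1 in gibberellin, with an average log2 change of -0.11 (limma adjusted p = 0.936). EXLA1 (AT3G45970) ranged from 8.17 to 28.0 in water and from 1.99 to 23.8 in gibberellin, with an average of -0.69 (adjusted p = 0.518). EXLB1 (AT4G17030) ranged from 0.999 to 15.3 in water and from 4.31 to 25.3 in gibberellin, with an average of 0.47 (adjusted p = 0.714) and a change at 9 h of 2.21 ± 1.12 (adjusted p = 0.277). The 9 h change of EXLB1 was -0.24 between the A arrays and 4.66 between the B arrays, where the water array read 0.999, and it was 0.47 without that array and 3.95 without the water A array. None of the 3 reached 16 on more than 4 arrays, and EXLB1 did so on 0 water arrays and 2 gibberellin arrays. The sign of each of the 3 turned in at least 1 comparison when a single array was left out.

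**Figure D3:**
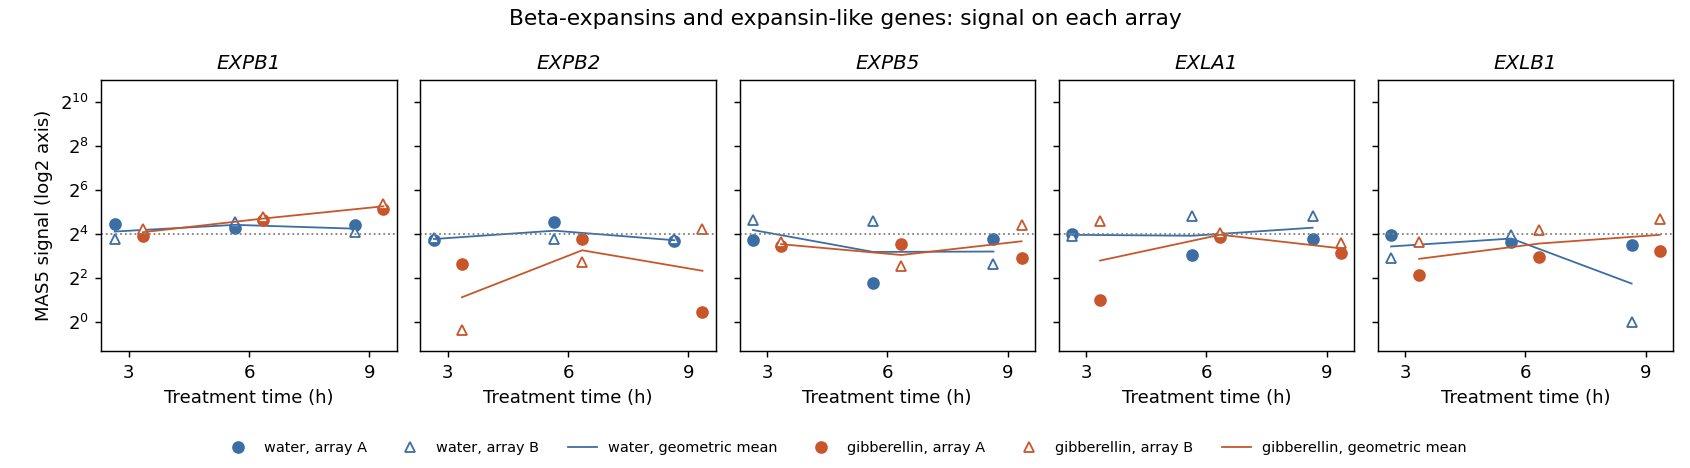
Signal of the 3 beta-expansins, EXLA1 and EXLB1 on each array, drawn as for the alpha-expansins (log2 axis, treatment time in h, water in blue, gibberellin in orange, circles for array A, triangles for array B, dotted line at 16). EXPB1 reaches 34.8 and 41.5 in gibberellin at 9 h, above its water arrays at 20.9 and 16.9, and the other 4 genes scatter around or below 16.

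Set side by side by class, the 5 alpha-expansins had positive changes at each time, although the sign for EXPA20 at 3 and 9 h turned when single arrays were left out. Their medians were 1.36 at 3 h, 1.80 at 6 h and 3.81 at 9 h on the log2 scale. The 5 members of the other classes had medians of -0.64, -0.14 and 0.47, with 0, 2 and 3 of the 5 positive. EXLB1, positive at 9 h, met the signal minimum only through gibberellin arrays. Averaged over the times, the medians were 2.37 for alpha-expansins and -0.11 for the others. The medians over all 15779 probe sets were -0.017, -0.0056 and -0.0012 at the 3 times and -0.0134 on average. Positive changes were seen for 7560, 7790 and 7874 of all probe sets at 3, 6 and 9 h. In limma 0 of the 5 other members passed in each of the 4 comparisons. At an unadjusted p under 0.05 there were 0 at 3 h, 0 at 6 h, 1 at 9 h and 1 on average. Of all 15779 probe sets, 830, 1818, 3504 and 4016 were under that threshold. All 5 members of the other classes had signals of 41.5 or less on every array. The difference between the classes was not tested.

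**Figure D4:**
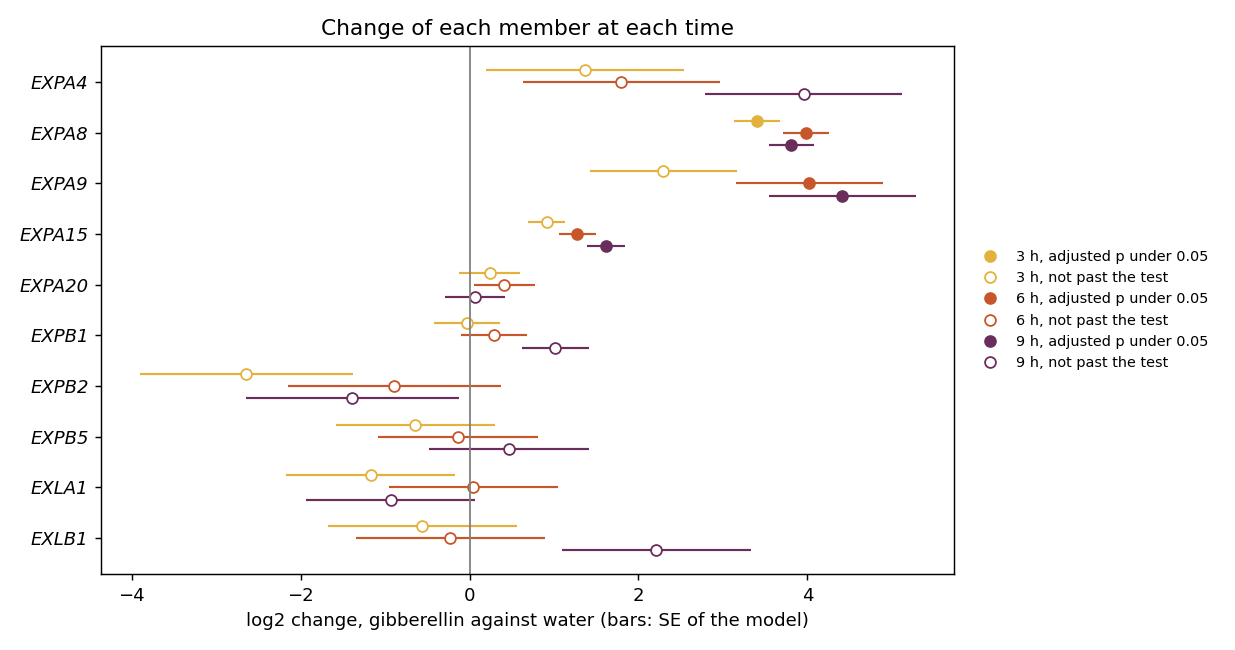
log2 change of gibberellin against water for each member at 3, 6 and 9 h (points, with bars of 1 SE from the limma model on 12 arrays), filled where the adjusted p is under 0.05. The model drawn has no block for the array letter. The filled points are EXPA8 at all 3 times (3.40, 3.98 and 3.81) and EXPA9 and EXPA15 at 6 and 9 h. The bars are widest for genes with signals near 16, such as EXPB2 (-2.64 ± 1.26 at 3 h).

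Over time, no member passed within either treatment in the fit without a block. The A arrays at 3 and 6 h had a low signal ceiling and those at 9 h a high one. Comparisons of 9 h with an earlier time therefore also cross that difference. From 3 to 6 h and from 6 to 9 h in gibberellin 0 of 10 passed, against 0.00634% of all tested probe sets in each. At an unadjusted p under 0.05 there were 2 and 1 members, and 619 and 917 of all 15779 probe sets. For the same steps in water 0 of 10 passed, against 0% of all tested probe sets. Unadjusted there were 0 members in each, and 291 and 339 of all probe sets. Between 3 and 9 h in water 0 of the 10 members passed in limma, as did 0% of all tested probe sets. At an unadjusted p under 0.05 there were also 0 members, and 327 of all probe sets. The water levels of EXPA8 at 9 h against 3 h gave -0.56 ± 0.268, and those of EXPA9 and EXPA15 gave 0.08 ± 0.871 and 0.27 ± 0.22. Between 3 and 9 h in gibberellin 0 of 10 passed, against 0.488% of all tested probe sets. Under an unadjusted p of 0.05 there were 3 members, and 2057 of all 15779 probe sets. EXPA15 gave 0.98 ± 0.22 (limma adjusted p = 0.0886) and EXPA9 gave 2.20 ± 0.871 (adjusted p = 0.305). With single arrays removed EXPA9 ranged from 0.877 (without the gibberellin B array of 3 h) to 3.52 (without its A array), with a call in 0 of 12 fits. With the letter as a block both rose (adjusted p = 0.00635 and 0.00381), against 2.62% of probe sets called higher in that fit. EXPA8 gave -0.15 over the same interval, a value whose sign turned in 4 of the 25 settings.

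The difference between the gibberellin effects at 9 h and 3 h passed in limma for 0 of the 10 members, against 0.0127% of all probe sets. Under an unadjusted p of 0.05 there were 1 member and 1074 of all 15779 probe sets. This difference of effects was 2.12 for EXPA9 (limma adjusted p = 0.0939 with the letter as a block) and 0.70 for EXPA15 (adjusted p = 0.284 with the block). Calls at 6 or 9 h that were missing at 3 h therefore do not show an effect that grew with time. On the log2(signal + 16) scale with the letter as a block, EXPA9 passed this test (1.99, adjusted p = 0.0123). Without the block or offset its difference ranged from 0.80 (without the gibberellin B array of 3 h) to 3.44 (without its A array), with a call in 0 of 12 fits.

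With the letter as a block throughout, 3 members rose at 3 h (EXPA8, EXPA9 and EXPA15, against 0.551% of all probe sets called higher), 3 at 6 h (against 3.01%), and 4 at 9 h and on average (against 7.92% and 10.7%). All of these were alpha-expansins. On the 8 arrays with a high ceiling alone, the members called were 1 at 3 h (EXPA8), 2 at 6 h (EXPA8 and EXPA9), and 3 at 9 h and on average (EXPA8, EXPA9 and EXPA15). The shares of all probe sets called there were 0.038%, 0.418%, 5.96% and 3.54%. In that fit the groups at 3 and 6 h had 1 array each, which was taken to vary like the others. The shares of that fit count calls in either direction, while those with the letter as a block count rises only.

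Across the 12 arrays the log2 signals of EXPA8 correlated with those of EXPA15 (Pearson's r = 0.875), EXPA9 (0.872) and EXPA4 (0.727), less with EXPB1 (0.438) and EXPA20 (0.351), and negatively with EXPB2 (-0.479). With EXLB1, EXPB5 and EXLA1 it gave 0.254, -0.122 and -0.391. EXPA9 and EXPA15 gave 0.924, and EXPA4 and EXPA15 gave 0.609. Some values across classes were as high: EXPA4 gave 0.726 with EXLB1, and EXPB1 gave 0.666 with EXPA9 and 0.672 with EXPA15. These values are descriptions, since the 12 points share treatment, time and letter. Among 8861 single-gene probe sets the most like EXPA8 were CP1 (0.98), AT3G11600 (0.967), AT5G55050 (0.966), AT5G40670 (0.964) and the asparaginase gene ASPGB1 (0.962). EXPA15 ranked 79th and EXPA9 85th in that order. The most like EXPB2 were AT5G48430 (0.93), AT2G18590 (0.89), AT1G05575 (0.883), AT4G01897 (0.861) and AT1G67470 (0.859). The EXPB2 values behind this order are low: 2 of the 12 arrays reached 16, and the gibberellin arrays 3 h B and 9 h A read 0.763 and 1.36.

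In 6 lists of other cell wall genes set by name, 16 genes had a probe set of their own, and 9 were tested. With 8730 of 22746 probe sets unnamed here, these lists may miss wall genes that the arrays measure. Of the 9, 0 rose at 3 h, 2 at 6 h, 2 at 9 h and 3 on average, against 0.184%, 0.913%, 3.78% and 5.98% of all tested probe sets, and 0 fell at any time. At 3 h 1 of the 9 had an unadjusted p under 0.05 in limma, as did 830 of all 15779 probe sets. The calls at 6 and 9 h were both among 5 tested genes of the xyloglucan list, XTH19 and XTH16, which encode enzymes that cut and rejoin xyloglucan. XTH19 had signals of 41.2 and 32.6 in water at 9 h and 297 and 453 in gibberellin, without overlap, a rise of 3.32 ± 0.329 on the log2 scale (limma adjusted p = 0.000242). XTH16, named after its values were seen, rose by 2.29 ± 0.371 at 9 h (adjusted p = 0.00435).

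The largest average in the xyloglucan list, 3.10 ± 0.99 for XTH18, did not pass (limma adjusted p = 0.0675). Its water signals were 0.459 to 7.01, and it met the signal minimum only through 2 gibberellin arrays, at 23.8 and 19.7. XTH33 of the same list also met it only through gibberellin arrays, at 16.5, 20.3 and 22.0, with water signals of 5.23 to 13.1. It was not called in any comparison with water. BGAL16, a beta-galactosidase gene, rose on average by 0.50 ± 0.142 (adjusted p = 0.0428). COB, which directs the orientation of cellulose deposition, gave an average of 0.35 (adjusted p = 0.1) and GAUT15, of a family that includes pectin-synthesising enzymes, gave -0.37 (adjusted p = 0.419). The 2 mannan genes missed the signal minimum. The 1 gene matched by name to the wall proteins, PRP39, is a pre-mRNA processing factor, at an average of 0.10 (adjusted p = 0.564).

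The 8 family members that had a probe set of their own and missed the signal minimum stayed low in both treatments. EXPA7 and EXPA18, which act in root hairs, reached at most 14.0 and 14.1 on any array. The highest signals were 13.8 for EXPA16 and 3.59 for EXPA21, and 10.6 and 10.8 for EXLA2 and EXLA3. EXPA24 and EXPB3 each reached 16 on 1 array, at 16.2 and 22.5, and so lay just outside the rule, while EXLB1 and EXPB2, with 2 arrays each, lay just inside. A further 2 probe sets name 2 family members each, EXPA22 with EXP26 and EXPA23 with EXPA25, and reached at most 9.23 and 14.0. These 4 genes lie in a run of 6 neighbouring family members on the RefSeq map, with EXPA21 and EXPA24 at its ends, and a shared probe set cannot tell its genes apart.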

How the data were processed

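The authors deposited 1 table of intensity values on a linear scale for 22810 probe sets and 12 arrays, MAS5 signals per the submitters' processing notes, with a version not given in the sources used here. The trimmed mean of every array lay between 100.008 and 100.01, so the deposited signals were already on a common scale. Values were taken to log2 with no further normalization. After 64 control probe sets were left out, probe sets with a signal of 16 or more on at least 2 arrays were tested. Genes were named from the platform annotation (503 probe sets name several genes and 8730 are unnamed here), and neighbours from the RefSeq table. No sequence or coordinate is printed.

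In limma 3.58.1 (R 4.3.3), 6 group means were fitted to the 12 arrays, which leaves 6 residual degrees of freedom, with variances moderated by an intensity trend (prior degrees of freedom 5.53). The 13 comparisons are two-sided, with Benjamini-Hochberg adjustment over 15779 probe sets. The median SE at 1 time was 0.317 and precision is set by the small number of arrays.

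The array letters come from the sample titles, and no label says what they share. Deviations from the group means correlated between same-letter arrays at 0.102 to 0.275 in the 9 pairs of groups that were compared (0.0764 in 1 of the 6 other pairs). The letters were therefore taken as pairs in a second fit, with the letter as a block. The reported values come from the fit without a block unless stated, and the blocked value is given where it changes a call.

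All members are named. The lists of cell wall and marker genes were set by symbol or locus. From each wall list at most 2 genes with the largest average change are named. XTH16 and XTH33 were added after their values were seen, XTH33 for how it met the signal minimum. The members and lists were chosen with earlier results of these data known. Alternatives were the letter or the signal ceiling as a block, the arrays with a high ceiling alone, other normalizations, an offset of 16, other filters and variance settings, and leaving out each array. The letter block together with the offset was added after seeing the data.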

Additional observations from a re-analysis of the deposited data

How the results depend on the processing

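EXPA8 kept its call against water at each time in all 25 settings tried. The count of members called at 3 h, 1 as reported, was 3 with the letter as a block, also on the log2(signal + 16) scale. The count at 6 h, 3 as reported, was 1 without the intensity trend, 1 to 3 when single arrays were left out, and 4 (EXPA4 added) with the letter block on the log2(signal + 16) scale. It fell to 1 without the water B array, the gibberellin A array or the gibberellin B array of 6 h. For gibberellin at 9 h against 3 h, 0 as reported, it was 2 with the letter block, with the ceiling as a block, on the high-ceiling arrays and with the block on the log2(signal + 16) scale, and 0 to 1 when single arrays were left out (1 without the gibberellin A array of 3 h). The difference of effects between 9 h and 3 h had 1 call under the block with the offset. The counts at 9 h and on average stayed within 1.5 times. Over all probe sets, the calls at 3 h numbered 36 and ranged from 1 (arrays of the compared groups only) to 152 (block with offset). Those at 6 h numbered 233 (66 to 979), those at 9 h 1178 (256 to 2890) and those on average 1833 (558 to 3621).

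Signs turned for values that had not passed. On the high-ceiling arrays the changes became 0.49 for EXPB1, 0.67 for EXLA1 and 0.70 for EXLB1 at 3 h, and -0.74 for EXLA1 and 0.24 for EXLB1 at 6 h. With quantile normalization EXPB1 at 3 h became 0.0736 and EXPB5 at 6 h 0.0397, and EXLA1 at 6 h was -0.0435 on the log2(signal + 16) scale with and without the block. EXPA8 at 9 h against 3 h in gibberellin became 0.0116 with the ceiling as a block and 0.0173 on the high-ceiling arrays. When single arrays were left out, EXPA20 ranged from -0.175 to 0.649 at 3 h and -0.134 to 0.259 at 9 h, EXPB1 from -0.382 to 0.322 at 3 h, and EXPB2 from -3.26 to 0.488 at 9 h. EXPB5 ranged from -1.55 to 1.28 at 6 h, -0.273 to 1.2 at 9 h and -0.577 to 0.366 on average. EXLA1 ranged from -2.96 to 0.622 at 3 h and -0.836 to 0.926 at 6 h. EXLB1 ranged from -1.32 to 0.196 at 3 h, -0.843 to 0.389 at 6 h and -0.106 to 1.05 on average. EXPA8 at 9 h against 3 h in gibberellin ranged from -0.321 to 0.0173. The cause of these shifts was not tested.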
